A study of Mus musculus with 24 samples.

Results

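Of the 35518 Cdx2-bound regions called in at least 2 of 12 libraries from mouse colon organoids, 710 (2.00%) had their median summit inside an annotated exon and more than 3 kb from any transcript start. A summit is the base of highest ChIP signal in a peak, and the median was taken over the libraries that called the region. Exons were those of the GENCODE vM21 annotation on mm10 (GRCm38). Of the 710 exonic regions, 381 lay in 3′ untranslated sequence, 246 in noncoding exons, 81 in coding sequence and 2 in 5′ untranslated sequence. The remaining regions lay in introns (12476), in intergenic sequence (16308) or within 3 kb of a start (6024).

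Organoid lines came from both ends of the colon, proximal and distal, of 3 female mice. An age of 8 weeks is given for organoid donors in general, in a passage that names fewer mice, and not for these 3. By the labels they carried 1 copy of a Cre-inducible BrafV600E allele and 1 copy of a tdTomato reporter allele, Gt(ROSA)26Sortm9(CAG-tdTomato)Hze, bred from the strain B6.129P2(Cg)-Braftm1Mmcm/J and a reporter strain on B6;129S6. The Braf allele expresses the normal protein until Cre acts, and no Cre step is described for these libraries, which holds for every group. WENR-plus medium, the culture medium of all organoids over the preceding 4 months, supplies Wnt3a, EGF, Noggin and R-spondin. Each site was profiled in WENR-plus and in WENR-minus medium, with 3 libraries in each of the 4 groups. After plating, the WENR-minus groups had 2 days with the factors and 3 days in their absence. DNA for each library came from 6 wells. The 12 lists held between 5608 and 42192 peaks on chromosomes 1 to 19, X and Y, and total reads were not analysed here.

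Cdx2 is a homeobox transcription factor that specifies intestinal epithelium and maintains its differentiated state, and it binds a short AT-rich word, mostly at enhancers. Exons are a special setting for such a factor. Coding bases also have to spell a protein and are rich in G and C, whereas 3′ untranslated sequence is AT-rich, carries the signals for cleavage and polyadenylation, and is free of codons. Exons of long noncoding RNAs need not spell a protein.

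The sequences at the strongest exonic regions that held a Cdx2 motif are shown to make plain what kind of exonic sequence was bound. The Cdx2 motif was any of 4 words of 7 letters on either strand. The first word is TTTATGA, while the second is TTTATGG. The third word is TTTATTA, while the fourth is TTTATTG. The motif stands in capitals wherever it is whole in the window. Sequences are from the GRCm38 assembly, plus strand, 5′ to 3′. The windows in coding and noncoding exons reach 50 bp to either side of the median summit, trimmed for U2surp, and those in 3′ untranslated sequence are shortened to the motif and its neighbours. Each was called in at least 6 libraries, and the 32 bp at each summit occurred once in the assembly.
Ptchd3, exon 4 of 4, chr11:121842601-121842701: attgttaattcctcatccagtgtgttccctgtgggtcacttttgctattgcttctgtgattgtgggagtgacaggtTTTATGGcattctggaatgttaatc
Grhl2, exon 9 of 16, chr15:37328288-37328388: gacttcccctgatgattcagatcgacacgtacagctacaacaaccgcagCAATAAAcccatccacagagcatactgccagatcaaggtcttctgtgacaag
Ipp, exon 9 of 9, chr4:116537789-116537889: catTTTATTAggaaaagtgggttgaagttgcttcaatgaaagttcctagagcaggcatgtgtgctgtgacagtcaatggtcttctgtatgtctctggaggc
Ifit2, exon 3 of 3, chr19:34573795-34573895: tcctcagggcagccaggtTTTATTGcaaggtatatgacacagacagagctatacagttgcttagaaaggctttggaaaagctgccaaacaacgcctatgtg
U2surp, beside exon 13 of 27, chr9:95485516-95485560: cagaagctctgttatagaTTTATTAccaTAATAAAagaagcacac
4930412C18Rik, exon 3 of 3, chr4:9780517-9780617: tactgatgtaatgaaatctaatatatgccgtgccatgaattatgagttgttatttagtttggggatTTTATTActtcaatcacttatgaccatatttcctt
B530045E10Rik, exon 4 of 4, chr10:99354007-99354107: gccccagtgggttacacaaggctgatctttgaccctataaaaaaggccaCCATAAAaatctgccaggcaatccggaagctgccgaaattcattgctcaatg
4930547M16Rik, exon 2 of 2, chr10:39907439-39907539: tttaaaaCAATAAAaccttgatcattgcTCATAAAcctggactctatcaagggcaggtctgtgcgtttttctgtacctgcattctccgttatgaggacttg
Pigm, 3′ untranslated, chr1:172382344-172382372: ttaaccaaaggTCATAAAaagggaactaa
Neu3, 3′ untranslated, chr7:99811714-99811742: tttcattccctTTTATGAcctctagttaa
Nln, 3′ untranslated, chr13:104023453-104023481: cgacataatatTTTATTGaacacaaagtc
In Grhl2, Ptchd3 and Ifit2 every base shown was coding, and the motif centre lay 2, 29 and 29 bp from the summit. In Ipp 90 bases were coding, and the motif lay in the intronic bases at the left end of the window, 44 bp from the summit. In U2surp, whose exon is 105 bp long, both motifs of the window were intronic (0 of 45 bases exonic), although the median summit itself was in the exon.

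Regions in coding exons reached past the exon more often than those in other exons. The exonic stretch that held a coding region had a median length of 142 bp, against 3088 bp for 3′ untranslated and 2144 bp for noncoding regions, and the regions themselves had median widths of 410, 406 and 444 bp. Of the coding regions, 64 of 81 (79.0%) were wider than their exonic stretch. This was so for 12 of the 381 3′ untranslated regions (3.15%). Every library that called a coding region had its own summit in an exon for 40 of 81 regions (49.4%), compared with 331 of 381 (86.9%) in 3′ untranslated and 210 of 246 (85.4%) in noncoding exons. Of the 42 coding regions with a motif within 50 bp of the summit, 31 (73.8%) had the nearest motif wholly inside the exonic stretch. In 3′ untranslated sequence it was 246 of 248 (99.2%).

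The noncoding group was mixed. Long noncoding RNA genes held 114 of these regions, 59 of them in lincRNA and 34 in antisense genes, and noncoding transcripts of protein-coding genes held 111. A further 17 lay in unspliced TEC transcripts and 4 in pseudogenes. Of all 710 exonic regions, 580 (81.7%) were in the last exon of a spliced transcript, and 575 (81.0%) belonged to a protein-coding gene. The same shares of all exonic positions away from starts were not counted. The 710 regions were spread over 680 genes, of which 653 held 1 region and 25 held 2. Braf and Cdx2 held none.

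To compare kinds of sequence of unequal size, the regions were counted per Mb of sequence more than 3 kb from a start. Coding sequence held 4.44 regions per Mb, whereas 3′ untranslated sequence held 16.1, noncoding exons 17.3, introns 14.2 and intergenic sequence 12.6. Per library, the density in coding sequence ran from 0.329 to 3.56 regions per Mb (median 1.43) and that in 3′ untranslated sequence from 2.45 to 13.2 (median 5.35). Coding sequence was the less dense in 12 of 12 libraries. Averaged over the media of each of the 6 organoid lines (1 site and 1 replicate number), the density was 4.35-fold lower (log2 −2.12 ± 0.24, SD over 6 lines), and the exact two-sided sign-flip permutation test gave p = 0.031, the smallest that 6 lines can give. The 6 lines came from 3 mice, so that both sites of a mouse are not independent. With the mouse as the unit the smallest p is 0.25, and neither this nor any other sign-flip test given here could pass 0.05. Against introns it was 4.01-fold lower (log2 −2.00 ± 0.23, 6 of 6 lines, exact sign-flip p = 0.031). Exons as a whole were 1.15-fold less dense than introns (log2 −0.21 ± 0.05, 12 of 12 libraries, exact sign-flip p = 0.031).

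**Figure D1:**
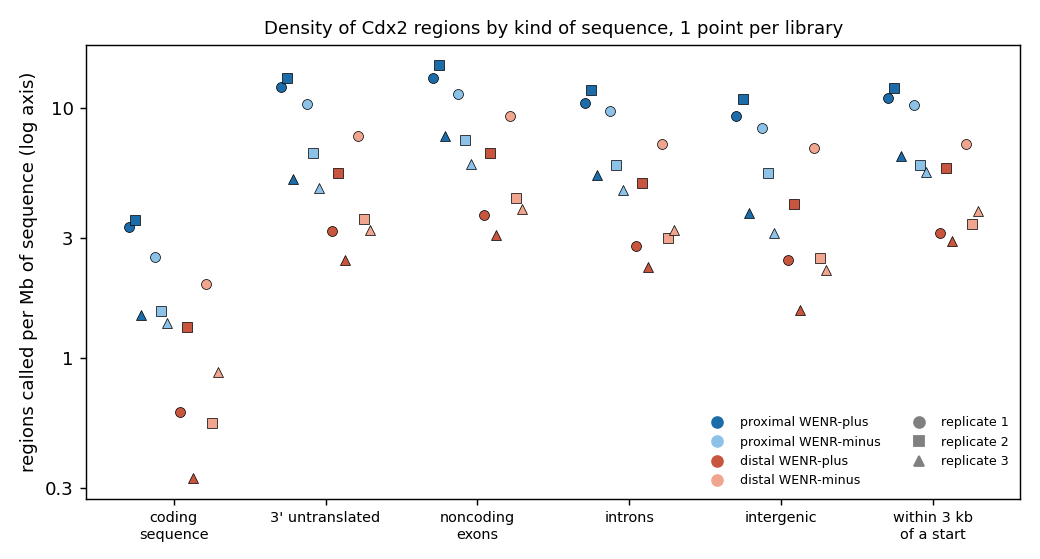
Regions called per Mb of sequence (log axis) in coding sequence, 3′ untranslated sequence, noncoding exons, introns, intergenic sequence and within 3 kb of a start; each point is 1 library, coloured by group and shaped by replicate number. Coding sequence runs from 0.329 to 3.56 regions per Mb, and in every library it lies below the other kinds.

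Base composition moved with this difference. A Cdx2 motif lay within 50 bp of 4.12% of coding positions, compared with 10.4% of 3′ untranslated, 9.39% of noncoding exonic and 9.95% of intronic positions, so that motifs were 2.52 times more frequent in 3′ untranslated than in coding sequence while regions were 3.63 times more frequent. Counting only regions with a motif, per Mb of sequence within 50 bp of a motif, coding sequence held 55.9, introns 93.9 and noncoding exons 114. These pooled values took the motif at the median summit. The density per line took it at each library's own summit, which could lie outside the exon. The 2 measures are therefore not the same. By the measure per line, the density was 2.08-fold lower in coding than in 3′ untranslated sequence (log2 −1.06 ± 0.23, SD, 6 of 6 lines and 12 of 12 libraries, exact sign-flip p = 0.031). The windows at the coding regions had a median GC content of 40.6%, and all coding bases taken alone had 50.2%. The corresponding values were 34.7% and 42.5% in 3′ untranslated sequence. For coding regions these are unlike measures. Of the 81 coding summits, 57 lay within 50 bp of an exon edge, so that their windows ran past the exon.

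Coding sequence was the less dense in each class of exon length. In exonic stretches of up to 500 bp, coding sequence held 66 regions at 5.72 per Mb and 3′ untranslated sequence 12 at 17.0 per Mb. In stretches over 500 and up to 2000 bp the densities were 2.85 and 18.7 per Mb, and in those over 2000 and up to 10000 bp they were 1.77 and 15.0 per Mb. Coding sequence in these longer stretches held 9 and 6 regions. In the longest stretches, over 10 kb, 3′ untranslated sequence held 20 regions at 18.4 per Mb and coding sequence none in 0.164 Mb.

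Within 3′ untranslated sequence, the regions gathered at the end of the transcript. Of the 381 regions, 98 (25.7%) had their summit within 100 bp of an annotated transcript end, where 12.6% of all 3′ untranslated positions lay. The share ran from 20% to 27.6% over the 12 libraries (median 23.4%) and exceeded 12.6% in each of them. Nearness was set once per region by its median summit, and the libraries called overlapping sets of the 381 regions. Agreement between libraries or lines is therefore partly built in. Averaged per line the excess was 10.9 percentage points (± 2.21, SD, 6 of 6 lines, exact sign-flip permutation p = 0.031). Without the exonic regions for which any library put its summit outside an exon, the difference was −0.544 points (exact sign-flip p = 0.719). This filter takes away regions that straddle the end of a gene, while the share of positions was kept at 12.6%. It lowers the excess by its own rule, so that this value cannot tell what the excess rests on. When untranslated stretches of at least 1000 bp were divided into 5 equal parts, the last part held 137 of 325 regions (42.2%). The parts before it held 24, 54, 44 and 66 from the start of the stretch. The 3 kb limit takes away positions near starts, and the positions left in each part were not counted. An even spread over the 5 parts is therefore not a fair yardstick for these counts. In coding and noncoding exons, 7.41% and 16.7% of the regions lay within 100 bp of a transcript end, where 7.20% and 11.3% of positions did.

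A related count took all regions away from starts, exonic or not, aligned on the 3′ ends of protein-coding genes. Within 100 bp of the 21629 gene ends there were 142 regions, or 54.2 per Mb, and from 300 to 1000 bp on either side there were 186, or 10.5 per Mb, a ratio of 5.19. The 100 bp just past the end held 91 regions at 69.3 per Mb, which counted as intergenic or intronic unless another exon covered them. The last 100 bp before the end held 51 regions at 39.1 per Mb and the 100 bp before those 50 regions at 38.8 per Mb. Further upstream, from 300 to 200 bp before the end, the density was 13.3 per Mb.

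**Figure D2:**
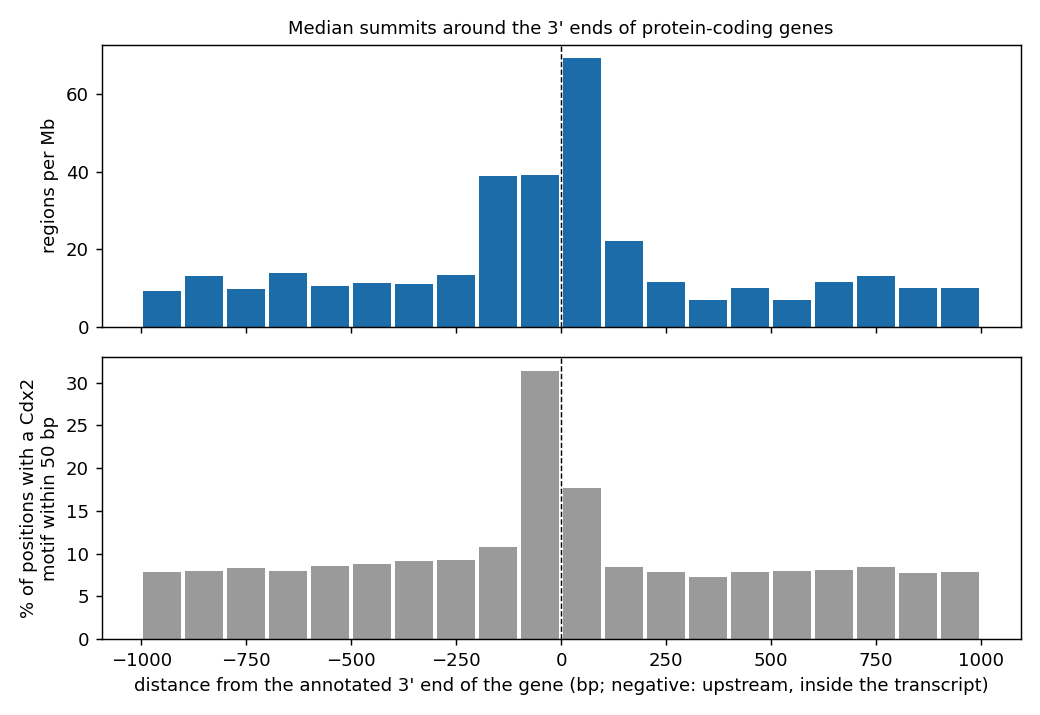
Top: regions called in at least 2 libraries, per Mb, in bins of 100 bp around the annotated 3′ ends of protein-coding genes, without sequence within 3 kb of a start; bottom: percent of positions in the same bins with a Cdx2 motif within 50 bp. Regions reach 69.3 per Mb in the bin just past the end against 10.5 per Mb from 300 to 1000 bp away, and positions near a motif reach 31.4% in the bin just before it.

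The motif was also frequent there. The polyadenylation signal AATAAA, read from the opposite strand, is TTTATT, the first 6 letters of 2 of the 4 words searched. A Cdx2 motif lay within 50 bp of 31.4% of positions in the last 100 bp of genes and of 17.7% in the 100 bp after them, compared with 8.15% from 300 to 1000 bp away. Within 100 bp of gene ends the share of positions near a motif was 3.01 times that farther away, and regions were 5.19 times as dense. Per Mb of sequence within 50 bp of a motif, regions with a motif numbered 193 within 100 bp of an end and 80.7 farther away. Of the 248 3′ untranslated regions with a motif, the nearest motif was TTTATTA or TTTATTG on the strand opposite to the gene in 65, and 32 of these lay within 100 bp of a transcript end. On the strand of the gene, which does not spell the signal, the same words were nearest in 75. The 98 regions near an end and the other 283 held a motif in 75.5% and 61.5%, were called in a median of 3 and 4 libraries, and had median fold percentiles of 44.5 and 47.9 (defined below). The sequence around the summit was unique in the assembly for 86.7% and 88.3%. No test was made of these differences, and the part of base composition or of the polyadenylation signal in the gathering at ends was not tested beyond these counts.

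A Cdx2 motif lay within 50 bp of the median summit in 445 of the 710 exonic regions (62.7%, 95% Wilson interval 59.1 to 66.2%), compared with 66% of intronic, 69.8% of intergenic and 60.7% of promoter regions. At positions 1000 bp to either side of the exonic summits the share was 10.8% and 11.4%, and over all exonic positions it was 8.10%. Coding regions held it in 42 of 81 (51.9%, interval 41.1 to 62.4%), 3′ untranslated regions in 65.1% and noncoding regions in 62.2%. At each library's own summits the exonic share ran from 48.9% to 70.7%. The difference between exonic and intronic regions within libraries, averaged per line, was −0.421 percentage points (± 1.92, SD, n = 6 lines, 2 of them above 0, exact sign-flip permutation p = 0.594), which is smaller than the spread between lines. With all sequence more than 1 kb from a start the difference was 2.17 points (exact sign-flip p = 0.031). The intronic share in the same libraries ran from 49.9% to 65.5%.

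**Figure D3:**
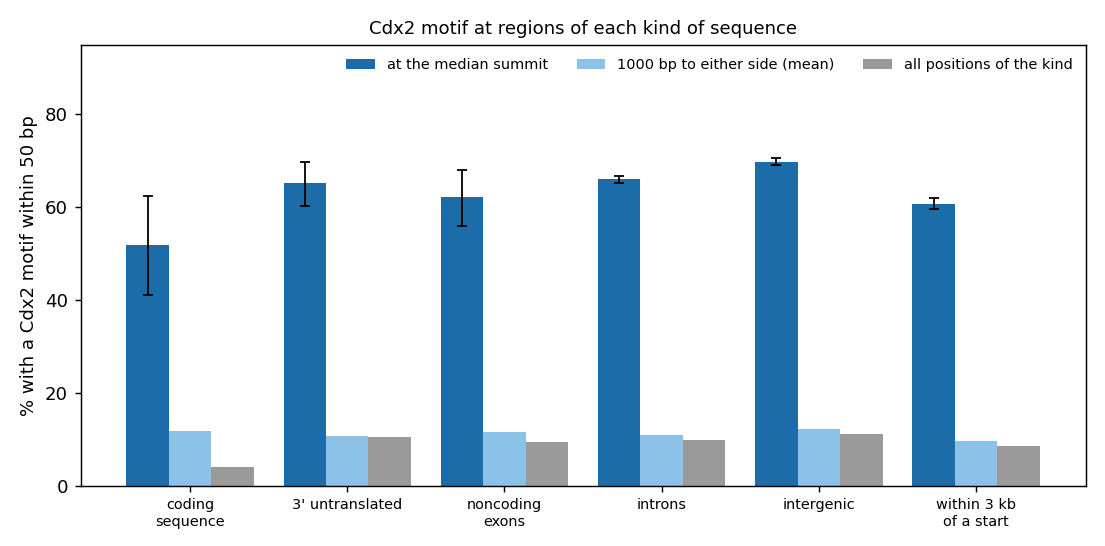
Percent of median summits with a Cdx2 motif within 50 bp (dark bars, with 95% Wilson intervals, which cover counting error only), of windows 1000 bp to either side (light bars, mean of the 2 sides) and of all positions of the kind (grey bars). The motif was at 51.9% of coding and 65.1% of 3′ untranslated summits, against 4.12% and 10.4% of positions.

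Among the 445 exonic regions with a motif, the nearest was TTTATGA in 133, TTTATTA in 131, TTTATTG in 109 and TTTATGG in 72. Its centre lay a median of 21.0 bp from the summit. It was on the strand of the gene in 243 regions (54.6%), which was 59.3% in 3′ untranslated, 52.4% in coding and 47.7% in noncoding regions. More than 1 motif was present in 180 of the 710 regions (25.4%). Regions called in more libraries held the motif more often up to the middle of the range. The share was 54.5% of the 189 regions called in 2 libraries, 62.0% of the 279 in 3 to 5, 71.4% of the 126 in 6 to 8, 69.1% of the 81 in 9 to 11 and 65.7% of the 35 in all 12 (interval 49.2 to 79.2%).

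Motifs of other intestinal factors were less common, and none of the words searched contains another. The AP-1 word TGANTCA was within 50 bp of 8.17% of exonic summits and of 2.76% of exonic positions. For the GATA word AGATAA the shares were 9.01% and 5.5%, for the HNF4 word CAAAGTC 3.24% and 1.80%, and for the FOX word TGTTTAC 2.96% and 1.51%. The KLF word CCNCNCCC was less frequent at summits (3.24%) than over positions (6.15%), as was the CTCF motif (0.282% and 0.555%). At intronic summits the same shares were 7.89% for AP-1, 9.95% for GATA, 2.75% for HNF4, 3.10% for FOX, 3.82% for KLF and 0.409% for CTCF. GC content within 50 bp of the summit differed between exonic and intronic regions by −0.233 percentage points (± 0.218, SD, lower in 5 of 6 lines), which did not pass the exact sign-flip test (p = 0.0625). In protein-coding genes alone the difference was −0.663 points (exact sign-flip p = 0.031).

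The number of exonic regions called followed the length of the lists. Proximal libraries held 537, 590 and 260 with WENR-plus (replicates 1, 2 and 3) and 456, 290 and 223 with WENR-minus, and distal libraries 140, 248 and 108 with WENR-plus and 351, 157 and 149 with WENR-minus. Replicate 3 of each group was the lowest, and the groups overlapped except for proximal and distal libraries in WENR-plus medium. In that medium the study lists more reads and a larger share of reads in peaks for every proximal library than for every distal one. The part of read number and of this share in the counts was not tested. Proximal libraries held 2.80-fold more exonic regions than distal libraries in WENR-plus medium (log2 1.49, 3 against 3, exact permutation p = 0.1, the smallest possible, adjusted 0.4 over 4 comparisons) and 1.53-fold more in WENR-minus medium (exact p = 0.3, adjusted 0.4). WENR-plus libraries held 1.41-fold more than WENR-minus libraries in proximal organoids (exact p = 0.3, adjusted 0.4) and 1.30-fold fewer in distal organoids (exact p = 0.5, adjusted 0.5). With 3 libraries a group these tests could not pass 0.05, and since each group holds lines of 3 mice their p-values measure the spread between those lines. The distal difference turned to 0.10 on the log2 scale without replicate 1 and to 0.02 without distal WENR-minus replicate 1. The effect of the medium differed between the sites by 0.87 on the log2 scale (3 lines against 3, exact permutation p = 0.3).

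As a share of each library's regions, exonic regions were nearly constant, from 1.89% to 2.10%. Proximal and distal lines both had a mean of 2.00% (± 0.0673 and ± 0.0601, SD, n = 3 lines each, exact permutation p = 1.00). Within lines the share was 0.0308 percentage points higher in WENR-plus medium (± 0.0803, SD, 4 of 6 lines, exact sign-flip p = 0.375), less than the spread between lines. Without replicate 1 the medium difference was −0.0384 points and the difference between sites −0.0675 points, so that neither had a settled direction.

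**Figure D4:**
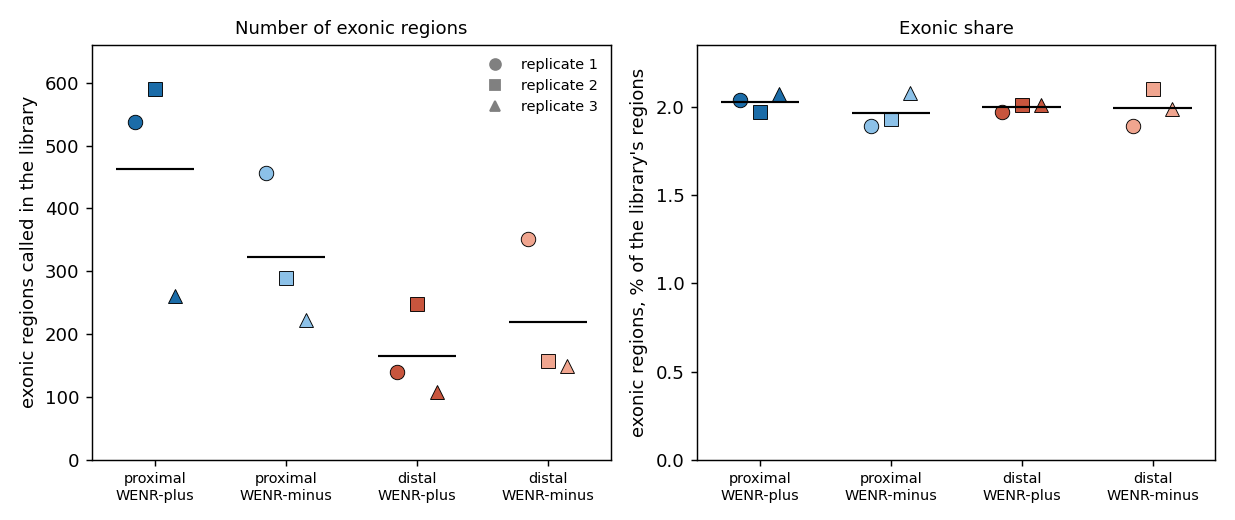
Left: exonic regions called in each library; right: the same as a percent of all regions called in that library. Points are libraries shaped by replicate number and lines are group means; numbers run from 108 to 590, whereas shares run from 1.89% to 2.10%.

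Of the 710 exonic regions, 189 (26.6%) were called in 2 libraries only, and 35 (4.93%, interval 3.57 to 6.78%) in all 12. Of all 35518 regions, 5.85% were called in all 12. Of these 35, 18 were in 3′ untranslated sequence, 16 in noncoding exons and 1 in coding sequence, in Tbc1d8b. To set libraries side by side, the fold of a peak over its matched input was ranked among all peaks of its own list, and the rank is given as a percentile. Since a longer list reaches down to weaker peaks, the same peak ranks higher in it.

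The exonic region with the highest median percentile among those called throughout was in the last exon of the long noncoding RNA gene 4930412C18Rik (chr4:9779989-9781545). Its fold was 13.5, 33.9 and 23.7 (WENR-plus) and 38.7, 27.9 and 38.9 (WENR-minus) in proximal organoids, and 15.4, 25.8 and 16.2 (WENR-plus) and 21.6, 18.7 and 17.2 (WENR-minus) in distal organoids. Its percentile was 96.1 or above in every library, and the folds of the sites overlapped. The single 7554 bp exon of Pigm, which encodes a mannosyltransferase of GPI anchor synthesis, held the next (chr1:172381810-172383051). In Pigm the fold was 38.7, 47.7 and 29.0 (WENR-plus) and 48.9, 37.5 and 23.0 (WENR-minus) in proximal organoids, and 16.8, 15.5 and 10.7 (WENR-plus) and 22.6, 14.2 and 16.4 (WENR-minus) in distal organoids. Every proximal fold was above every distal fold, by a narrow margin (23.0 against 22.6), and the percentiles overlapped. How many of all regions have this order of folds was not counted, and folds are relative to each library's own input.

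The 3′ untranslated exon of Neu3, a plasma membrane sialidase, showed no such order (chr7:99811287-99812209). Its fold was 16.2, 23.8 and 11.7 (WENR-plus) and 13.7, 14.9 and 8.87 (WENR-minus) in proximal organoids, and 17.6, 23.5 and 13.2 (WENR-plus) and 24.5, 17.4 and 19.2 (WENR-minus) in distal organoids. Klf5, a zinc finger factor of proliferating crypt cells, was bound in its last exon, with a narrow range (chr14:99304539-99305701). In Klf5 the fold was 17.4, 14.7 and 17.2 (WENR-plus) and 14.8, 16 and 14.8 (WENR-minus) in proximal organoids, and 10.6, 11.5 and 14.1 (WENR-plus) and 13.6, 12.6 and 14.7 (WENR-minus) in distal organoids. It held no Cdx2 motif within 50 bp of the summit, but held one within 100 bp.

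Scfd2, which encodes a protein of the Sec1 family, was the one region of the 35 whose percentile was higher in every proximal than in every distal library (chr5:74456052-74457326). Its fold was 26.3, 32.6 and 25.1 (WENR-plus) and 26.1, 24.1 and 19.6 (WENR-minus) in proximal organoids, and 11, 13.6 and 10.7 (WENR-plus) and 11.3, 9.46 and 9.79 (WENR-minus) in distal organoids. Among all 2079 regions called throughout, 5.48% had this order, so that 1 of 35 exonic regions is no more than in the rest. The reverse order, with every distal percentile above every proximal one, was found in 0 exonic regions and in 0.144% of the 2079. No exonic region had every WENR-plus percentile above every WENR-minus percentile (0.337% of the 2079) or the reverse (0.0962%).

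**Figure D5:**
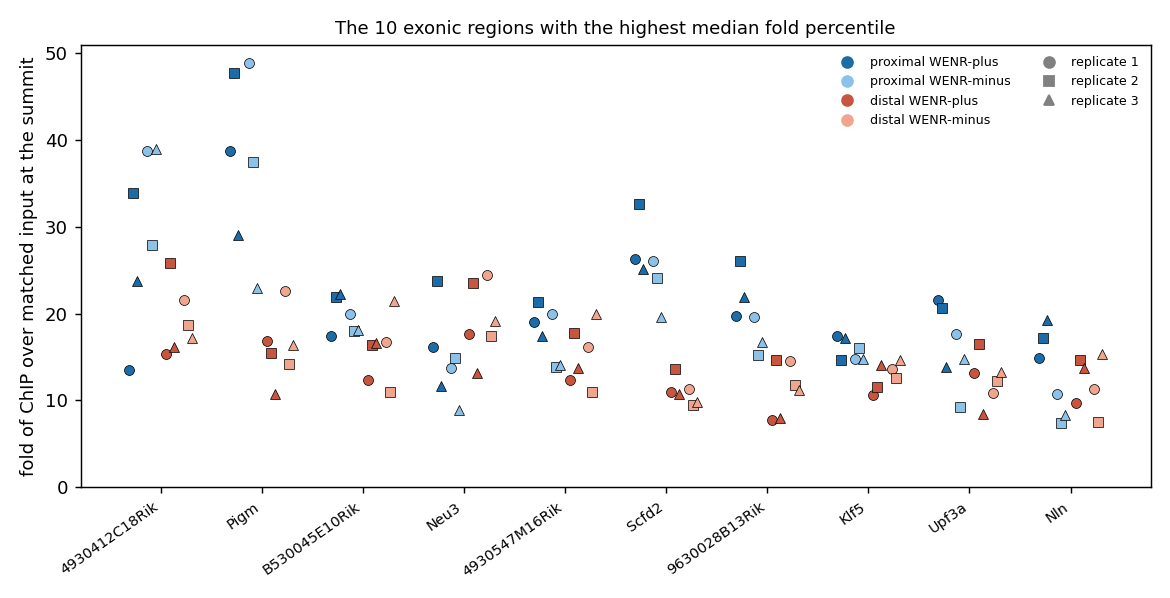
Fold of ChIP over matched input at the summit, from the deposited lists, for the 10 exonic regions with the highest median fold percentile among those called in all 12 libraries; each point is 1 library, coloured by group and shaped by replicate number. For Scfd2 all proximal folds (19.6 to 32.6) lie above all distal folds (9.46 to 13.6), and for Klf5 the range is 10.6 to 17.4.

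The other 5 of these 10 were in the long noncoding RNA genes B530045E10Rik, 4930547M16Rik and 9630028B13Rik, in a noncoding transcript of Upf3a, a factor of nonsense-mediated decay, and in the 3′ untranslated exon of the peptidase gene Nln. Their median folds were 17.7, 16.8, 14.9, 13.5 and 12.5. Of the 35 regions, 12 held no motif within 50 bp, and their median percentiles ran from 3.29 in Lars2 to 96.9 in Scfd2. The Lars2 region stood apart. Lars2 encodes the mitochondrial leucyl-tRNA synthetase, and its region was called in all 12 libraries at a median fold of 3.70, with 4 exact copies in the assembly of the 32 bp at the summit.

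Coding regions were called in a median of 3 libraries and both 3′ untranslated and noncoding regions in 4, a difference that was not tested. Ptchd3, a patched-domain gene, was called in 6 of 6 proximal libraries at folds of 11.4, 14.1 and 13.7 (WENR-plus) and 19.6, 11.7 and 16.3 (WENR-minus), and in 1 distal library, WENR-minus replicate 3, at 5.94. Grhl2, an epithelial transcription factor that maintains cell junctions, was called in 10 libraries. Its folds were 13.0, 12.2 and 7.44 (WENR-plus) and 14.0, 9.91 and 10 (WENR-minus) in proximal organoids, and 7.75, 6.20 and 7.69 (WENR-minus) in distal organoids, where of the WENR-plus libraries replicate 2 alone called it, at 9.05. The splicing factor gene U2surp and Ipp, which encodes a kelch-repeat protein, were each called in 11 libraries, at median folds of 8.49 and 8.88, and the interferon-induced gene Ifit2 in 9 at 7.34. In U2surp 8 and in Ipp 7 of the 11 summits were in an exon, and in Grhl2 9 of 10.

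Whether exonic regions were particular to one site or medium was asked region by region. Called in all 6 proximal and in no distal library were 14 exonic regions (1.97%), against 1.80% of all regions. The reverse was found for 1 exonic region (0.141%), against 0.0957% of all regions. Fisher's exact test per region (6 libraries against 6) counted both media of a line as separate libraries, which makes its p-values too small, since 3 lines against 3 cannot go below 0.1. At an unadjusted p under 0.05 it gave 36 exonic regions (5.07%) more often called in proximal organoids, against 4.96% of all regions. More often called in distal organoids was 1 exonic region (0.141%), against 0.282% of all regions. After Benjamini-Hochberg adjustment over all 35518 regions 0 passed, and the lowest adjusted p by this exact test was 0.114. These shares are near the background. Within each medium and replicate number the proximal list was longer than the distal one. The part of list length in these counts was not tested beyond taking lists of equal length. That left 224 exonic regions, of which 3 were called in every proximal library but in none of the distal ones. Leaving out a replicate asks for fewer libraries, so that more regions can meet the rule. Without replicate 3, whose lists were short, 32 exonic regions were called in every proximal library left and in none of the distal ones. There were 27 without replicate 2 and 20 without replicate 1. The shares of all regions under these alternatives were not computed.

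Of the 14 regions, 9 were in 3′ untranslated sequence, 4 in noncoding exons and 1 in coding sequence, in the dynein heavy chain gene Dnah6, and 9 held a motif. The one with the highest mean percentile was in the last exon of Eif1a, a translation initiation factor gene, with folds of 10.5, 8.44 and 12.1 in proximal WENR-plus and 9.40, 9.91 and 8.52 in proximal WENR-minus libraries. Gm37985, a TEC transcript, had folds of 13.0, 7.84 and 11.7 and of 6.19, 9.20 and 8.15 in the same groups. The long noncoding RNA gene Gm2093, the proteasome chaperone gene Psmg2 and the ubiquitin ligase gene Trim23 followed, with median folds of 8.38, 8.10 and 6.85. The distal region was in the 3′ untranslated exon of Slc16a1, a monocarboxylate transporter gene (chr3:104657496-104657936). Its folds were 5.29, 4.44 and 5.12 in distal WENR-plus and 5.49, 6.31 and 5.24 in distal WENR-minus libraries, and it held TTTATTG 1.0 bp from the summit. A second region of the same exon (chr3:104656714-104657197) was called in 5 distal libraries and in proximal WENR-plus replicate 1, at a median fold of 5.79.

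Within WENR-plus medium, 58 exonic regions were called in 3 proximal and 0 distal libraries (8.12% of all regions) and 2 in the reverse (0.259% of all regions). Within WENR-minus medium these counts were 26 (3.53%) and 5 (0.577%). In proximal organoids 13 exonic regions were called in 3 WENR-plus and 0 WENR-minus libraries (1.28%) and 1 in the reverse (0.206%). In distal organoids 2 were called in WENR-plus medium only (0.222%) and 5 in WENR-minus medium only (0.709%). As shares of the 710 exonic regions these were 8.17%, 0.282%, 3.66%, 0.704%, 1.83%, 0.141%, 0.282% and 0.704%, close to those of all regions.

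Exonic binding was set against gene lists of colon biology. Of the 16638 protein-coding genes with an exon more than 3 kb from a start, 3.31% held an exonic region. None was found in 30 listed colonocyte and brush-border genes, 19 mucin and goblet cell genes, 27 stem cell and Wnt pathway genes, 39 junction, adhesion and basement membrane genes or 36 chromatin regulator genes with such an exon. Of 19 homeobox genes 3 held one (Satb1, Zeb1 and Onecut2), and of 35 other intestinal transcription factor genes 4 (Klf5, Grhl2, Nr5a2 and Nfib). Receptor tyrosine kinase and MAPK genes that held one included Egfr, Met and Sos1.

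Apart from Klf5 and Grhl2, these were low in fold or called in few libraries. Nr5a2, a nuclear receptor of crypt cells, was called in its last exon in 6 libraries, at folds of 5.70 and 5.99 in proximal WENR-plus replicates 1 and 2, 4.64 and 4.25 in proximal WENR-minus replicates 1 and 2, 4.44 in distal WENR-plus replicate 2 and 5.49 in distal WENR-minus replicate 1. Sos1, a guanine nucleotide exchange factor for Ras, was called within its 111 bp coding exon 7 of 22 in 10 libraries, at a median fold of 5.33 and with no motif within 50 bp. Egfr and Met each held 2 neighbouring regions in the last exon, called in 3 and 4 and in 5 and 3 libraries, without a motif. Both Egfr regions were called in proximal libraries alone. How many of all regions called in so few libraries have this pattern was not counted, and proximal lists were the longer ones. Satb1 was called in 2 libraries, and Zeb1, Onecut2 and Nfib in 3 each.

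Only D10Wsu102e and Gm37985 held more than 2 exonic regions. In D10Wsu102e 4 regions lay in a 3′ untranslated exon of 122802 bp and were called in 5, 4, 3 and 10 libraries, the last at a median fold of 9.70 without a motif. One of them, called in 4 libraries, had 217 exact copies of its 32 bp in the assembly. In Gm37985 3 regions in an exon of 74456 bp were called in 6, 11 and 2 libraries. Over all 710 regions, 630 (88.7%) were unique at, before and after the summit, and 26 (3.66%) had no unique 32 bp in these windows. A coding region of Gm21738, called in 8 libraries at a median fold of 2.13, had 170 copies.

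Just inside it, Gm11373 (3004 bp from a start) and Phip (3006 bp) were each called in 3 libraries at median folds of 5.09 and 4.12. Just outside it, exonic summits in Sccpdh (2990 bp) and E230029C05Rik (2971 bp) were called in 11 and 9 libraries at median folds of 7.93 and 8.0. The fold percentile of exonic and intronic regions differed by less than the spread between lines (−0.445 percentile points ± 3.26, SD, n = 6 lines, exact sign-flip permutation p = 0.938), and by 1.70 points without replicate 3. In each library the median exonic percentile was between 49.2 and 63.1.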

How the data were processed

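ChIPmentation libraries for Cdx2 were analysed from the deposited peak lists, 1 for each of the 12 libraries. The 12 input libraries were not analysed here. By the submitters' processing notes, the authors trimmed reads (Trimmomatic 0.39), aligned them to mm10 (Bowtie2 2.4.5), removed duplicates (SAMtools 1.13) and called peaks per library against matched input (MACS2 2.2.7.1, q of 0.01). The study's own software list gives other versions of Bowtie2 and SAMtools. The deposited lists give a score, a fold (ratio to the local background) and −log10 p and q for each peak, and no read counts. List length is given in place of depth and need not follow it. Peaks overlapping by at least 1 bp were merged, and regions in at least 2 libraries were kept. Fold percentile is the percent of the peaks of a list with a fold at or below that of the region's strongest peak.

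Numbers per library were compared on the log2 scale by two-sided exact permutation tests, with 4 comparisons adjusted by Benjamini-Hochberg. Values within lines were compared by two-sided exact sign-flip tests over 6 lines, taking the same replicate number and site in both media as 1 line. Same-numbered libraries correlated between −0.07 and 0.30 in their deviations, over 0.1 in 7 of 18 pairs. Libraries with different numbers correlated between −0.25 and 0.21, over 0.1 in 3 of 36 pairs. Wilson intervals (95%) cover counting error only. No batch or date was given in the sources used here. Regions were named by fixed ranks: the 10 with the highest median fold percentile among those called in all 12 libraries, the top 5 called in all of 1 site and none of the other, the top 5 coding regions with a motif, listed genes called in at least 6 libraries, those next to the 3 kb limit, and genes with at least 3 regions. The coding regions and the sequences shown were ranked without regions on chromosome 18. Other listed genes, Lars2, Gm21738 and the second Slc16a1 region were chosen after their values were seen. The full count for the receptor tyrosine kinase and MAPK list is not reported here. The members and gene lists were chosen with earlier results of these data known, and the tests of density and of transcript ends were added after seeing the data. Scripts were tested on simulated data. Python 3.11.15, NumPy 2.4.6, pandas 2.3.3, SciPy 1.17.1 and pysam 0.24.0 were used.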

Additional observations from a re-analysis of the deposited data

Results flagged for a closer look

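Each list also held peaks outside chromosomes 1 to 19, X and Y, which no comparison used. They numbered between 63 and 104 per list, on unplaced contigs and the mitochondrial genome. Contig JH584304 held 505 of them over the 12 lists at a median fold of 2.15, the mitochondrial genome 69 at 2.69 and other contigs 450 at 5.97.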

How the results depend on the processing

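Of 192 values recomputed under alternatives other than leaving out replicates or the replicate block, 156 kept their direction and side of the threshold, 17 turned, 11 moved and 8 passed the threshold. The cause was not tested except where the alternative itself uses fewer or shorter lists. The lower density of coding sequence and of exons kept its call under each alternative run for it, which did not include the 1 kb limit, protein-coding genes alone or, for the density near a motif, leaving out regions with a summit outside an exon.

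The difference in exonic share between sites turned to −0.0122 (−log10 q of at least 5), −0.0351 (lists of equal length), −0.0205 (overlap of 50%), −0.00785 (at least 3 libraries), −0.00929 (at least 1), −0.0388 (strongest summit), −0.102 (1 kb limit) and −0.0289 (no summit outside an exon). The medium difference in share was −0.0116 with at least 3 libraries and 0.149 with the 1 kb limit, and the distal medium difference in number 0.03 with equal lists. The motif difference was 2.17 with the 1 kb limit. The fold percentile difference turned to 0.427 (50%), 0.791 (at least 3), 0.0490 (at least 1), 0.533 (strongest summit) and 0.238 (no summit outside an exon). The GC difference passed at −0.228 (50%), −0.243 (at least 3), −0.275 (strongest summit), −0.663 (protein-coding genes), −0.178 (unique sequence), −0.320 (no exonic stretch over 10 kb) and −0.320 (no summit outside an exon). The excess at transcript ends was −0.544 with no summit outside an exon. The total was 224 with equal lists, 1169 with at least 1 library and 1090 with the 1 kb limit. Regions in all 12 libraries numbered 18 with equal lists and 67 with the 1 kb limit, all-proximal regions 3 and 22, and all-distal regions 0 with equal lists and 0 at the stricter q. The coding share was 7.59% with equal lists and 6.88% with no summit outside an exon.

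Leaving out replicates gave log2 differences in number of 0.95 to 1.86 and 0.33 to 1.01 between sites (WENR-plus, WENR-minus) and 0.14 to 0.87 and −0.84 to 0.10 between media (proximal, distal). Shares differed by −0.0675 to 0.0171 (sites) and −0.0384 to 0.0378 (media), motif share by −2.07 to −0.00259, fold percentile by −1.57 to 1.70 and GC by −0.262 to −0.138. Log2 densities ran from −2.16 to −2.02 (coding against 3′ untranslated), −0.20 to −0.18 (exons against introns) and −1.23 to −0.93 (per Mb near a motif), and the excess at ends from 11 to 12.1, where 4 lines cannot go below 0.125. Totals ran from 458 to 673, regions in all libraries from 44 to 74, all-proximal from 20 to 32, all-distal from 1 to 3, and the coding share from 10.5% to 11.9%. Calls in all libraries or in all of 1 site are easier to meet with fewer libraries.

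With the replicate number as a block, exact p was 0.25, 0.25, 0.25 and 0.750 for the 4 comparisons of number (log2 1.49, 0.61, 0.49 and −0.38) and 1.00 for the share between sites (0.00197), and without the block 0.459 for the medium (0.0308). With 3 pairs the smallest p is 0.25, and no call changed.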
